A study of Mus musculus with 6 samples.

Results

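The Pou5f1 window is the stretch of mouse chromosome 17 from 35780000 to 35850000 (GRCm39), chosen to hold Pou5f1 with its proximal and distal enhancers. Its members were chosen by position alone, as every deposited ATAC-seq peak that overlaps these 70 kb. They merged into 19 of the 259376 accessible regions found in the series, and 10 of the 19 were called in all 6 libraries. ATAC-seq uses a transposase that cuts open DNA and inserts sequencing adapters, so a peak marks accessible chromatin. The cells were E14TG2a mouse embryonic stem cells, a male line, grown with serum, LIF, the MEK inhibitor PD0325901 and the GSK3 inhibitor CHIR99021, and spike-in nuclei were added before transposition. Each genotype has 2 libraries, namely del-cIDR, an Alkbh5 allele without the part called cIDR (IDR stands for intrinsically disordered region), KO, an Alkbh5 knockout, and WT, the wild type. ALKBH5 removes N6-methyladenosine from RNA. The labels name neither the number of clones behind a genotype nor separate cultures for the replicates, so the spread between libraries may be technical and a line may stand for a genotype.

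Pou5f1 encodes OCT4, a POU-domain transcription factor that binds DNA together with SOX2 and is required to keep embryonic stem cells pluripotent. In the mouse its transcription is driven by a promoter without a TATA box and by a pair of upstream enhancers. The distal enhancer is the one used in naive stem cells and the inner cell mass, and the proximal enhancer, which lies between it and the promoter, is the one used in the epiblast. The gene is read on the plus strand, so its upstream side is the side of lower coordinates. In the RefSeq order of genes (assembly GRCm38.p6), H2-Q10, a class I histocompatibility gene, and the non-coding Gm32362 come before Pou5f1, and Tcf19, Cchcr1, Psors1c2 and Cdsn come after it. That table is of another build than the peaks, so no peak was assigned here to the promoter, to an enhancer or to a gene, and regions are numbered 1 to 19 in order of coordinate.

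The promoter sequence is shown because it carries the binding motifs by which the Pou5f1 promoter is known. It is the RefSeq stretch of 250 bases before the annotated start, chr17:35505782-35506031 on the plus strand of GRCm38.p6. Capitals mark matches to the motifs searched.
Pou5f1 promoter: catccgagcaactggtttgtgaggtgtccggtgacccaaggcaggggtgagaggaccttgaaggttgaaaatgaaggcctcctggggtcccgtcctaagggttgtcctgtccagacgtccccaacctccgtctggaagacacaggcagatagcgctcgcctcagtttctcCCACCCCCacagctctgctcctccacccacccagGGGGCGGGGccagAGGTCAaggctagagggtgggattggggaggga
The SP1 motif GGGGCGGGG matched once, from 46 bases before the start, and was held by 10.4% of 32817 RefSeq promoter stretches of this length. The nuclear receptor motif AGGTCA began 33 bases before the start, next to the SP1 motif, and was held by 14.0% of the stretches. The KLF motif GGGNGTGG matched on the reverse strand at 80 bases before the start and was held by 15.9% of them. The Oct-Sox cores TTTGTNATG and ATTGTNATG, the octamer ATGCNAAT, the ESRRB motif TCAAGGTCA and the STAT motif TTCCNGGAA had no match on either strand. Their shares among all stretches were 1.05%, 0.826%, 2.86%, 0.387% and 0.914%. The stretch was 62% G and C, against a median of 52.4% over all stretches. RefSeq lists 2 starts for Pou5f1 in this table, and the stretch belongs to the first.

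Accessible sites were dense in the window. Tiles of 70 kb over the chromosomes 1 to 19 and X held a median of 5 regions, and 3.95% of 37555 tiles held at least 19. For regions called in all 6 libraries the median was 2, and 2.76% of tiles held at least 10. The window had 16 and 17 peaks in the del-cIDR libraries, 15 and 12 in the KO libraries, and 19 and 17 in the WT libraries. The means were 16.5 ± 0.707 peaks for del-cIDR, 13.5 ± 2.12 for KO and 18 ± 1.41 for WT (SD, n = 2). Both KO libraries thus had fewer peaks here than the other 4, but a region called as 2 peaks counts as 2. Region 10 was so called in del-cIDR replicate 1, KO replicate 2 and WT replicate 2. Region 8 was so called in del-cIDR replicate 1 and KO replicate 1, and region 1 in WT replicate 1. The libraries del-cIDR replicate 1 and KO replicate 1 held peaks in an equal number of merged regions. In all, KO replicate 1 had more mouse peaks (164639) than either del-cIDR library (157931 and 155128). How often other tiles show this order of counts was not tested. KO replicate 2 had the shortest list, 150680 peaks, and the WT lists were the longest, at 193905 and 184884. The covered length was 6858 ± 149 bp in del-cIDR, 6387 ± 1034 bp in KO and 7718 ± 397 bp in WT (SD, n = 2).

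**Figure D1:**
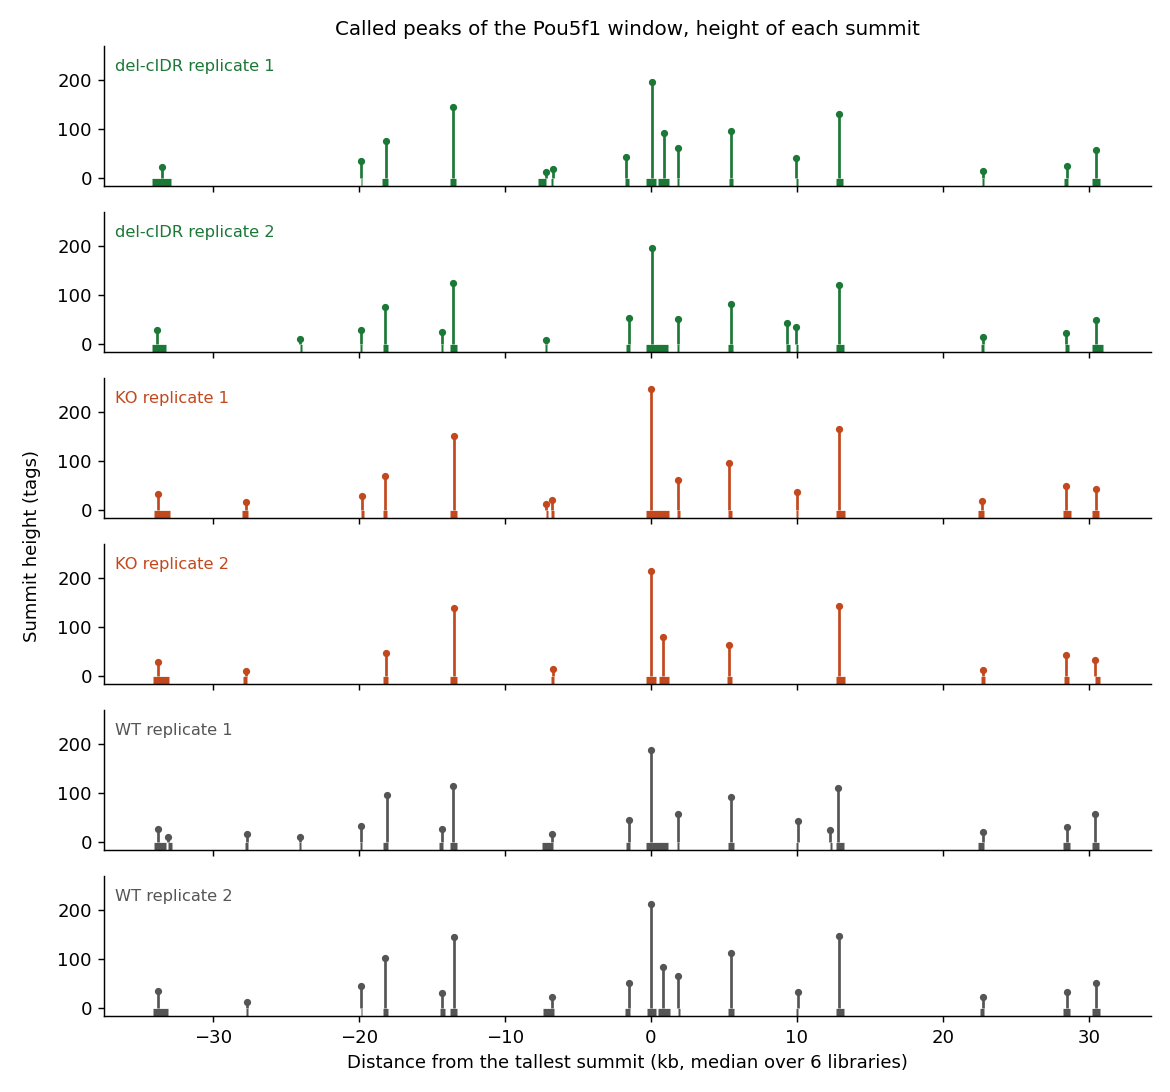
Summit height in tags (vertical axis) of every called peak in each of the 6 libraries, against the distance in kb from the tallest summit (horizontal axis); bars under the zero line span the called peaks. The tallest peak stands at 189 to 247 tags in every library, with peaks of 115 to 151 tags about 13.5 kb below it in coordinate and of 110 to 165 tags 12.9 kb above it.

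The tallest accessible site was region 10, from 35814636 to 35816253, and it was the widest as well. Its summit held 197 and 196 tags in del-cIDR, 247 and 215 in KO, and 189 and 213 in WT. Heights are numbers of tags over the summit, solved from the deposited fold and p of each peak, and they grow with the depth of a library. All 6 summits ranked in the top 1% of their own list by height, at percentiles of 99.0 to 99.4. The deposited fold, which divides the summit by the background around it, was 10.3 and 10.0 in del-cIDR, 11.3 and 11.7 in KO, and 10.2 and 10.4 in WT. By fold the same peaks stood at the percentiles 68.7 and 68.0 in del-cIDR, 73.6 and 77.5 in KO, and 72.7 and 69.7 in WT. By −log10 p they stood at 96.8 to 98.1. Lists differ in length, so percentiles of whole lists show no change between genotypes.

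Region 10 had a second, lower summit. In del-cIDR replicate 1, KO replicate 2 and WT replicate 2 the region was called as 2 peaks, and in the other library of each genotype as 1 peak of 1529 to 1561 bp. Where it was split, the second summit held 92 tags in del-cIDR, 81 in KO and 85 in WT, which is 46.7%, 37.7% and 39.9% of the first. It lay 834, 772 and 817 bp above the first in coordinate. The split did not follow the genotype. The main summit was at 35815019 in both del-cIDR libraries, at 35814956 and 35815003 in KO, and at 35814956 in both WT libraries. The del-cIDR summits thus lay at higher coordinates than the WT ones. Summit positions of del-cIDR and WT did not overlap in 3 of the window's 10 shared regions, against 27.8% of all 99216 regions called in all 6 libraries, which is near the count in the window.

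Beside it lay region 11, a narrow site from 35816760 to 35816948, with its median summit 1881 bp above the main summit of region 10. It held 62 and 52 tags in del-cIDR, 61 in KO replicate 1, and 57 and 67 in WT, and it was not called in KO replicate 2. This is 24.7% to 31.5% of the height of region 10 in the same library. Its fold was among the lowest of each list, at the percentiles 1.16 and 0.198 in del-cIDR, 0.343 in KO replicate 1, and 0.880 and 1.39 in WT. By height it stood at the percentiles 86.3 and 82.4 in del-cIDR, 84.0 in KO replicate 1, and 87.4 and 87.5 in WT. A site taller than most of its list was therefore among the peaks of lowest fold. Region 11 was also narrow, at 123 and 127 bp in del-cIDR, 162 bp in KO replicate 1, and 154 and 147 bp in WT. The narrowest peaks anywhere in these lists were 123, 125, 121, 114 and 113 bp, and that of KO replicate 2 was 130 bp.

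On the other side lay region 9, from 35813227 to 35813565, which was called in both del-cIDR and both WT libraries and in neither KO library. Its summits held 43 and 54 tags in del-cIDR and 45 and 52 in WT. Its fold percentiles were 0.0899 and 0.812 in del-cIDR, and 0.217 and 0.430 in WT, while by height it stood between 77.4 and 83.3 in the 4 lists. Of all merged regions, 2.24% had this calling pattern. With peaks limited to a −log10 q of at least 5, region 9 was lost from that pattern. Absence from a list does not show that a site was closed, since peaks under the limit of the caller were not listed.

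Regions 9 to 11 shared a high local background, by which the fold divides. The background solved for the summit of region 10 was 18.3 and 18.6 tags in del-cIDR, 20.9 and 17.4 in KO, and 17.6 and 19.6 in WT. The lowest background of the same lists was 1.01 to 1.26 tags. Over regions 9 to 11, the local background was 15.8 to 18.8 times the lowest of its library and above that of at least 99.7% of the peaks in its list. Toward higher coordinates it was 10.3 to 13.6 tags at region 12 and 1.76 to 2.39 tags at region 17. Toward lower coordinates it was 2.40 to 3.22 tags at region 8, and higher again at region 7, at 7.37 to 9.37 tags, and at region 5, at 7.81 to 9.91 tags. Divided by the lowest value of its library, the background at region 17 was 1.68 to 2.02. Percentiles of the fold therefore describe the ratio of a summit to this background here and not the number of tags. Whether the tags of region 10 themselves enter the background of regions 9 to 11 was not tested.

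**Figure D2:**
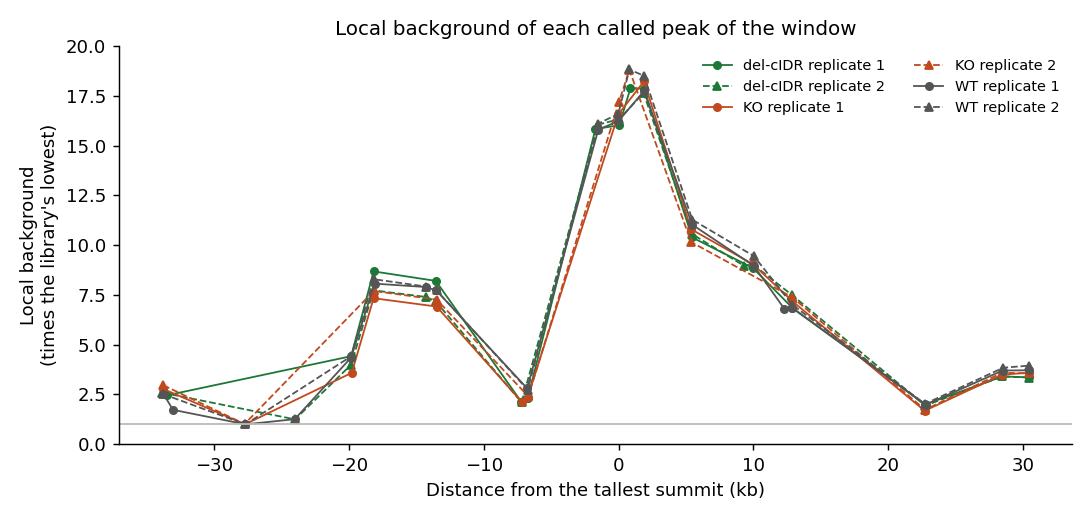
Local background of each called peak, divided by the lowest background of its library (vertical axis), against the distance in kb from the tallest summit. All 6 libraries reach 15.8 to 18.8 times their lowest background at regions 9 to 11.

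**Figure D3:**
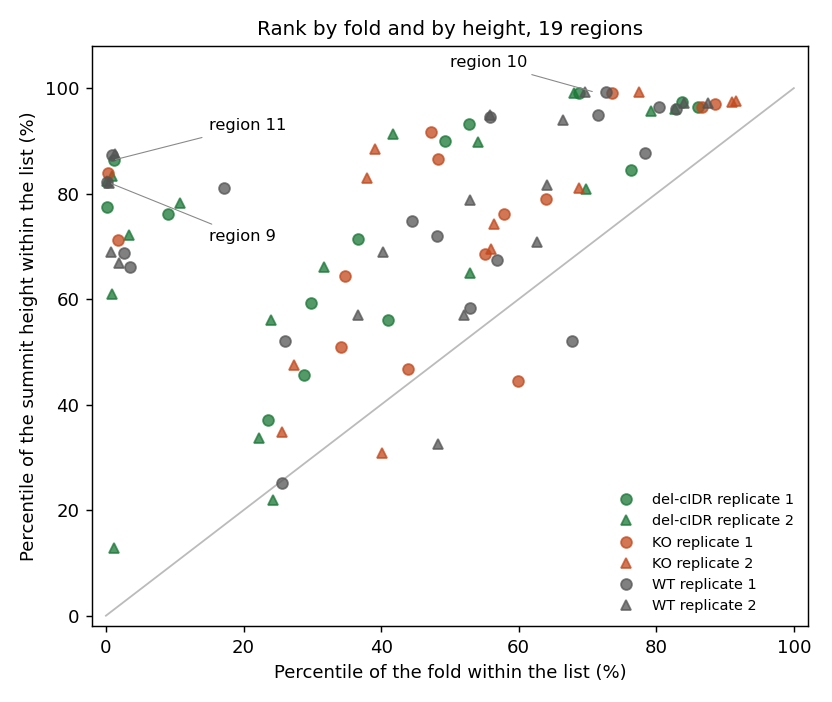
Percentile of the summit height (vertical axis, %) against that of the fold (horizontal axis, %) for the highest peak of each region in each list, coloured by genotype, with a grey line at equal percentiles. Regions 9 and 11 lie at the left edge with heights above the 77th percentile, and region 10 is at the top with folds between 68.0 and 77.5.

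The tall sites around region 10 were regions 5, 7, 12 and 16, each called in all 6 libraries. Region 7, from 35801214 to 35801695, held 146 and 126 tags in del-cIDR, 151 and 140 in KO, and 115 and 146 in WT. Region 16, from 35827636 to 35828297, held 132 and 120 tags in del-cIDR, 165 and 144 in KO, and 110 and 147 in WT. Both stood above the 95th percentile of every list by height. By fold they were the highest of the window, at percentiles of 80.4 to 91.1 for region 7 and of 79.2 to 91.6 for region 16. The local background there was lower than at region 10, at 7.37 to 9.37 tags and at 7.45 to 9.07 tags.

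Region 12, from 35820215 to 35820696, lay 5454 bp above the main summit of region 10. It held 96 and 83 tags in del-cIDR, 97 and 64 in KO, and 93 and 112 in WT. Its summit was at 35820433 in both del-cIDR libraries, at 35820361 and 35820357 in KO, and at 35820433 and 35820443 in WT. Both KO summits thus lay at lower coordinates than those of the other 4 libraries. Summit positions of KO and WT did not overlap in 3 of the 10 shared regions of the window, against 28.5% of all shared regions, and those of del-cIDR and KO in 5, against 28.6%.

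Region 5, from 35796537 to 35796970, was the lowest-coordinate of the 4 tall sites. It held 77 and 76 tags in del-cIDR, 70 and 48 in KO, and 97 and 103 in WT. Its fold percentiles were 49.3 and 54.1 in del-cIDR, 48.3 and 37.9 in KO, and 71.6 and 66.5 in WT. Region 4, from 35795044 to 35795348, is its neighbour and held 35 and 30 tags in del-cIDR, 30 in KO replicate 1, and 34 and 46 in WT. It was not called in KO replicate 2.

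The remaining regions were lower. Region 19, from 35845169 to 35845940, held 57 and 49 tags in del-cIDR, 44 and 34 in KO, and 58 and 51 in WT. Region 18, from 35843220 to 35843781, held 25 and 23 tags in del-cIDR, 49 and 44 in KO, and 31 and 33 in WT. The KO libraries had the most tags at this site and the del-cIDR libraries the fewest. Region 17, from 35837395 to 35837840, held 15 and 14 tags in del-cIDR, 19 and 12 in KO, and 21 and 24 in WT. Region 1, from 35780807 to 35782166, held 23 and 29 tags in del-cIDR, 34 and 29 in KO, and 27 and 35 in WT. Region 8, from 35807227 to 35808352, joins peaks at separate positions, with the highest summit of each library between 35807783 and 35808280, and held 18 and 9 tags in del-cIDR, 21 and 16 in KO, and 18 and 24 in WT.

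Of the 19 regions, 10 (52.6%) were called in all 6 libraries, against 38.3% of all merged regions. Regions 4, 11 and 14 were called in every library but KO replicate 2, a pattern of 2.97% of all merged regions. With that library left out, 13 regions were called in all of the remaining ones. These 3 regions were narrow, with peaks of 120 to 247 bp, and KO replicate 2 also had the lowest background of the 6 lists (1.01 tags) and the widest narrowest peak (130 bp). The part of depth and width in these missing calls was not tested. Region 14, from 35824898 to 35825067, held 41 and 36 tags in del-cIDR, 37 in KO replicate 1, and 43 and 33 in WT.

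Presence in both KO lists with absence from both WT lists was found for no region of the window and for 1.89% of all merged regions. Presence in both del-cIDR lists with absence from both WT lists was likewise found for none, against 0.931%. Regions 6 and 9 were in both WT lists and absent from both KO lists, a pattern of 7.22% of all merged regions. Region 6, from 35800468 to 35800889, held 26 tags in del-cIDR replicate 2 and 28 and 31 in WT. Region 2, from 35786965 to 35787370, was called in both KO libraries, at 18 and 11 tags, in both WT libraries, at 18 and 14 tags, and in neither del-cIDR library, a pattern of 1.13% of all merged regions. Regions called in both WT libraries and in no del-cIDR library made up 5.33% of all merged regions, and those called in both KO libraries and in no del-cIDR library 3.5%. Region 9 was the only one of the 19 in both del-cIDR lists and absent from both KO lists, against 3.59%. Region 3, from 35790887 to 35791064, had 11 tags in del-cIDR replicate 2 and 10 in WT replicate 1. Region 13, from 35824232 to 35824523, was called in del-cIDR replicate 2 alone, with 44 tags, and region 15, from 35827233 to 35827359, in WT replicate 1 alone, with 26 tags. Single-library calls made up 25.2% of all merged regions. With 19 regions, counts of 1 or 2 cannot be told from these shares.

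To set heights side by side across libraries, each summit was divided by the median height of the regions called in all 6 libraries on 16 autosomes. Chromosomes 6, 8 and 11 were left out of that median, because they differed between KO and WT in earlier results of these data. On this scale, KO exceeded WT by a median of 0.13 log2 over all 99216 shared regions, so single differences are read against that value. The median was 0.01 for del-cIDR minus WT and -0.12 for del-cIDR minus KO. An exact permutation test of 2 libraries against 2 cannot give a two-sided p below 0.333, and no difference between single regions was tested beyond this. Among the 10 shared regions of the window, both KO libraries were above both WT libraries in 5 (40.6% of all shared regions) and below in 3 (20.6%). Both del-cIDR libraries were above both WT libraries in 2 (22.9%) and below in 3 (21.3%). Against KO, both del-cIDR libraries were above in 2 (20.1%) and below in 7 (39.5%). The 7 include region 8, where the highest peak of del-cIDR replicate 2 lay at another position than in the other libraries. These counts move with the scaling: with the spike-in as the scale, KO was above WT in 1 region and below in 6, del-cIDR was above WT in 0 and below in 7, and del-cIDR was above KO in 3 and below in 1.

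**Figure D4:**
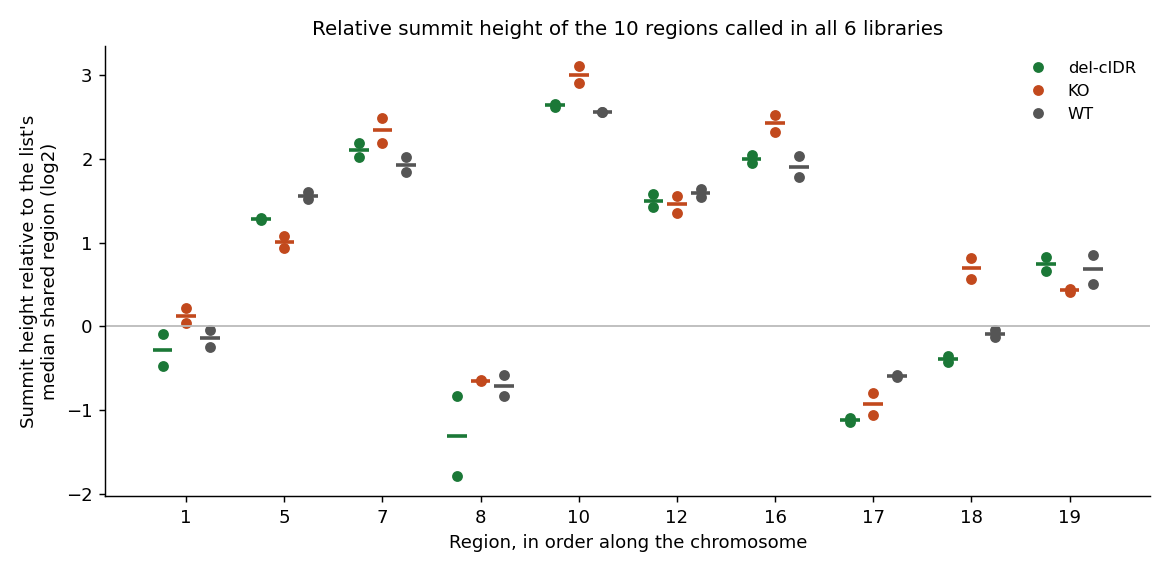
Summit height relative to the median shared region of the same list (vertical axis, log2) for the 10 regions called in all 6 libraries, in order along the chromosome. Points are libraries and bars are means of 2, with del-cIDR left, KO in the middle and WT right. KO points lie below the others at regions 5 and 19 and above them at regions 1, 7, 10, 16 and 18.

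At region 10 the relative height was 2.62 and 2.66 log2 in del-cIDR, 2.90 and 3.10 in KO, and 2.56 in both WT libraries. This is 6.24 ± 0.118 times the median shared region in del-cIDR, 8.04 ± 0.789 times in KO and 5.91 ± 0.00737 times in WT (SD, n = 2). KO exceeded WT by 0.44 log2, and 46.4% of all shared regions lay at least as far from the median difference. With the spike-in as the scale the difference was -0.05 and the groups overlapped, so no direction can be given for region 10. In the spike-in scaling, the median shared region of KO differed from WT by -0.36 log2. The del-cIDR libraries differed from WT by 0.08 log2, and by -0.03 with the spike-in as the scale. Among the regions called in all 6 libraries, region 10 stood at the height percentiles 98.5 in both del-cIDR libraries, 98.5 and 99.0 in KO, and 98.6 in both WT libraries. Regions 7 and 16 showed the same dependence, with KO 0.41 and 0.52 log2 above WT by the mouse scale and -0.09 and 0.03 from it by the spike-in scale. Region 1 did so too, with KO minus WT at 0.27 log2 by the mouse scale and -0.22 by the spike-in scale. At regions 8 and 12 the KO and WT libraries overlapped on the mouse scale, with differences of 0.06 and -0.13 log2, and by the spike-in scale both KO libraries lay below both WT libraries, with differences of -0.43 and -0.62 log2. In region 8 the summit of del-cIDR replicate 2 was that of another peak than in the other 5 libraries.

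Region 5 was lower in KO than in WT under each of 7 scalings, including the spike-in, the fold and region 10 itself. The scalings are not independent, since all but the fold shift every height of a library by the same log2 amount. The median KO minus WT difference of all shared regions was 0.13 log2 on the main scale. It was 0.11 scaled by chromosome 17, 0.08 by all autosomes and 0.04 by the median ratio. On the main scale the relative height of region 5 was 1.08 and 0.94 log2 in KO and 1.60 and 1.52 in WT, a difference of -0.55 log2, and 13.5% of all shared regions lay at least as far from the median difference. The difference ran from -1.04 to -0.51 over the scalings. The del-cIDR libraries lay between, at 1.27 and 1.29 log2, and differed from WT by -0.28 log2, with a range of -0.39 to -0.23, and from KO by 0.27 log2. As a share of region 10 in the same library, region 5 reached 39.1% and 38.8% in del-cIDR, 28.3% and 22.3% in KO, and 51.3% and 48.4% in WT. The 3 genotypes did not overlap in this share, but how many of all shared regions separate in this way was not counted. Region 10 was itself 0.44 log2 higher in KO than in WT on the main scale. With region 10 as the scale, KO minus WT at region 5 was -0.99 log2. The gap in this share between KO replicates was the largest within a genotype. Exact Poisson 95% intervals of the heights at region 5 were 54.6 to 88.4 and 35.4 to 63.6 tags in KO. In WT they were 78.7 to 118 and 84.1 to 125 tags. The interval of KO replicate 1 overlapped both WT intervals, and that of KO replicate 2 overlapped neither.

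Region 18 was higher in KO than in WT under each of the 7 scalings, and lower in del-cIDR than in WT. Its relative height was -0.36 and -0.43 log2 in del-cIDR, 0.57 and 0.82 in KO, and -0.05 and -0.13 in WT. KO exceeded WT by 0.78 log2, with a range of 0.29 to 0.78, and 15.3% of all shared regions lay at least as far from the median difference. The del-cIDR libraries differed from WT by -0.31 log2 and from KO by -1.09 log2. For the 2 mutants, 4.82% of all shared regions lay at least as far from the median difference as region 18. Its heights carry exact Poisson 95% intervals of 16.2 to 36.9 and 14.6 to 34.5 tags in del-cIDR, 36.3 to 64.8 and 32.0 to 59.1 in KO, and 21.1 to 44.0 and 22.7 to 46.3 in WT. These intervals cover counting error only. They overlap between KO and WT and between del-cIDR and WT. Both del-cIDR intervals overlap that of KO replicate 2. Only that of del-cIDR replicate 1 also overlaps that of KO replicate 1.

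Region 17 was lower than in WT in both mutants under each of the 7 scalings. It stood at -1.09 and -1.15 log2 in del-cIDR, -0.80 and -1.06 in KO, and -0.61 and -0.58 in WT. The difference from WT was -0.52 log2 in del-cIDR and -0.33 in KO, at heights of only 12 to 24 tags. Over the scalings these ran from -0.64 to -0.47 in del-cIDR and from -0.82 to -0.23 in KO, and without KO replicate 2 the KO difference was -0.20 log2. The Poisson 95% intervals of the heights at region 17 overlapped between all 6 libraries. Region 19 was lower in KO than in WT under each of the 7 scalings, at 0.42 and 0.44 log2 in KO against 0.86 and 0.50 in WT. Its difference of -0.25 log2 was smaller than the gap between the WT libraries. It was -0.74 log2 with the spike-in as the scale and -0.073 without WT replicate 1. Of the window's 10 shared regions, 3 were lower in KO than in WT under every scaling, against 15.6% of all shared regions, and 1 was higher, against 6.95%. For del-cIDR against WT, 3 were lower under every scaling, against 13.5%, and none was higher, against 11.5%. For del-cIDR against KO, 2 were higher, against 15.5%, and 1 was lower, against 10.3%.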

How the data were processed

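Peaks of the 6 libraries were used as deposited, 1 list per library without pooling of replicates. The submitters' processing notes name GRCm39, MACS2, BWA, fastp, featureCounts, Picard and SAMtools, with no versions; the settings, and whether reads were shifted to the cut site, are not stated there. The deposited fold is a ratio of the summit to its local background, the deposited −log10 p and −log10 q give its significance, and the score deposited by the authors was not used. Groups came from the sample titles. With the MACS2 form of fold (1 added to pileup and background) and p, whole-number pileups (tolerance 0.1) were found for 100% of 1016776 peaks, which gives height and local background; the solver was tested on simulated data. Total reads were not analysed here, so depth is known only through the lowest background of a list. Peaks on the sequence dm were taken as spike-in (511 regions called in all 6 libraries). Mouse peaks overlapping by at least 1 bp were merged, and a region's value in a library is its highest peak. Percentiles count mouse peaks of the same list at or below a value. Coordinates are 1-based. Python 3.11.15, pandas 2.3.3, NumPy 2.4.6 and SciPy 1.17.1 were used.

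Every region of the window is described. The rule for named elements placed peaks by distance from the Pou5f1 start; since gene positions of GRCm39 were not used here, that rule, the search for genes of like pattern, and the pluripotency and cell type marker lists were not run. The labelled cell type was therefore not checked against markers. Motifs were searched in RefSeq promoters of GRCm38.p6. The window and lists were chosen with earlier results of these data known.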

Additional observations from a re-analysis of the deposited data

How the results depend on the processing

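The labels do not tie same-numbered libraries to a shared culture or day, and over the 99216 shared regions the deviations of same-numbered libraries correlated by -0.012 to 0.0054, so the numbers were not taken as pairs. A fit with the replicate number as a block gives the same differences by construction in this balanced design (0.44 log2 for region 10, KO minus WT), and 2 pairs allow no useful test. The window held 19 regions with a −log10 q of at least 5, with an overlap of 50 bp and with lists of equal length, and 18 to 19 without 1 library. Those called in all libraries numbered 9 with the q limit and with lists of equal length, 10 with the 50 bp overlap, and 10 to 13 without 1 library. With a −log10 q of at least 5, regions in both WT and no del-cIDR library became 2, and those in both del-cIDR, or in both WT and both del-cIDR, and no KO library became 0. Leaving out 1 library gave 2 to 5 regions in WT and not KO (5 without KO replicate 1, 4 without WT replicate 2), 1 to 2 in WT and not del-cIDR (2 without del-cIDR replicate 2 or WT replicate 2), 0 to 1 in del-cIDR and not WT (1 without del-cIDR replicate 1), 1 to 4 in del-cIDR and not KO (4 without del-cIDR replicate 1 or KO replicate 1), and 1 to 4 in WT and del-cIDR and not KO (4 without KO replicate 1, 2 without del-cIDR replicate 1); fewer calls are required there by construction.

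The rank of region 10 by fold (68.4 in del-cIDR, 75.5 in KO and 71.2 in WT) became 67.2, 74.3 and 63.9 with lists of equal length, 96.8, 97.9 and 97.3 by −log10 p, and 99.0, 99.2 and 99.3 by height. That of region 11 (0.679, 0.343 and 1.14) became 0.339, 0.146 and 0.148 with lists of equal length, 37.7, 37.5 and 48.8 by −log10 p, and 84.4, 84.0 and 87.4 by height. Without 1 library, region 10 ranked 68.0 to 68.7, 73.6 to 77.5 and 69.7 to 72.7, and region 11 ranked 0.198 to 1.16 in del-cIDR and 0.880 to 1.39 in WT.

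For region 10, KO minus WT was -0.051 with the spike-in scale and 0.31 by the fold, del-cIDR minus WT was -0.034 with the spike-in and 0.12 scaled by all 19 autosomes, and del-cIDR minus KO was 0.017 with the spike-in and -0.22 by the fold. Without 1 library these ran from 0.34 to 0.54, from 0.06 to 0.10 and from -0.46 to -0.26. Among differences whose groups did not overlap on the main scale, signs also turned with the spike-in and with region 10 as the scale for region 1, KO minus WT (-0.22 and -0.17), region 7, KO minus WT (-0.085 and -0.034) and del-cIDR minus KO (0.15 and 0.13), and region 17, del-cIDR minus KO (0.19 and 0.17). Where groups overlapped on the main scale, signs turned with these scales for region 8, KO minus WT (-0.43 and -0.38), and region 19, del-cIDR minus WT (-0.046 and -0.011), with the spike-in for region 16, del-cIDR minus WT (-0.019), and with the median ratio for region 8, KO minus WT (-0.030). Without 1 library, signs turned for 5 differences whose groups overlapped, between -0.11 and 0.047 log2. The cause was not tested. Scaling by all autosomes, the median ratio and region 10, and ranking by height, were chosen after seeing the data. Heights under about 30 tags are limited by counting error.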
